A study of Mus musculus with 65 samples.

Results

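Cited2 (NCBI gene 17684) encodes a transcriptional regulator of the CITED family, and its expression was followed here in single hematopoietic stem cells of aged mice. It was taken as 1 row of a table of 18036 gene rows, of which 6826 held a value above 0 in at least 1 cell. Cited2 was selected on its detection in these same cells, in which earlier results had it more often in GFP label-retaining cells, so its shares and levels in both groups are given as a description, with no test of the difference. Cited2 was detected, that is, had an estimated count above 0, in 26 of 37 label-retaining cells and in 5 of 28 non-label-retaining cells.

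CITED2 has no DNA-binding domain. It binds the CBP and p300 acetyltransferases through their CH1 domain, where it competes with the hypoxia-inducible factor HIF-1 alpha, and it also brings these coactivators to other transcription factors. Cited2 is itself a HIF-1 target gene, so it is known as a negative feedback regulator of the hypoxic response. In mouse bone marrow, loss of Cited2 is known to deplete hematopoietic stem cells, and the p53, Ink4a-Arf, HIF-1 and AKT-FOXO3 routes have been linked to that loss.

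Both groups came from double heterozygous SCL-tTAxH2B-GFP mice older than 20 months, in which an SCL promoter drives the tetracycline transactivator and, through it, a histone H2B-GFP fusion that is diluted when a cell divides after labelling has stopped. Single cells of the surface phenotype LSK CD34-/low Flk2- CD48- CD150+ were sorted from lineage-depleted marrow of femora and tibiae as GFP positive (label-retaining, 37 cells) or GFP negative (non-label-retaining, 28 cells). All of them were kept overnight without growth factors at 3% oxygen, washed, and amplified 1 cell at a time with a full-length polyadenylated RNA kit that marks neither strand nor molecule. The 4 biological repeats held 9, 9, 10 and 9 label-retaining cells, and 8, 4, 6 and 10 non-label-retaining cells. The labels used here do not say how many mice made up a repeat, how long the GFP label was chased or whether a GFP-negative cell had ever been labelled. No cell was profiled without the night in culture, so the level of Cited2 before it was not measured.

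On mm10 (GRCm38.p6), RefSeq places Cited2 at chr10:17723228-17725674 on the plus strand. In the GENCODE M21 annotation, its transcript of widest span has 2 exons of 242 and 1737 bp, and its 807 bp coding sequence lies wholly within exon 2. No other annotated gene overlapped Cited2, and the nearest lay 64705 bp before it and 64848 bp after it, so neither an antisense partner nor a neighbour shared its span in this annotation. Cited2 is a HIF-1 target and these cells spent the night at low oxygen, so the 250 bases before its RefSeq start are shown, chr10:17722978-17723227 on the plus strand, from RefSeq for GRCm38.p6. Capitals mark CACGTG, which holds the HIF core ACGTG on both strands.
Cited2 promoter: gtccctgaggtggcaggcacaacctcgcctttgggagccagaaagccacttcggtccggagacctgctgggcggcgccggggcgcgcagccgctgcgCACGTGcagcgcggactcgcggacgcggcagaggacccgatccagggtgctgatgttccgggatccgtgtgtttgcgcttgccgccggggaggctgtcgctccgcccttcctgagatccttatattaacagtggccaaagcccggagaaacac
The core ACGTG began at -152 on the plus strand and its minus-strand match at -153, both within CACGTG. In windows of the same length, 16.6% of 32851 RefSeq promoters held ACGTG on either strand and 6.02% held CACGTG. The other HIF core, GCGTG, was found in 28.2% of promoters and not in these 250 bases. These matches describe the sequence and carry no measurement from the cells.

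Depth differed between the groups. Label-retaining cells held 27954 to 20516069 counts over the analysed genes, with a median of 264894, and non-label-retaining cells held 86.1 to 661078, with a median of 118056. By repeat, 1 to 4, the median was 1654517, 697583, 201268 and 164961 counts in label-retaining cells. In non-label-retaining cells it was 65358, 41004, 271753 and 201757 counts. By these medians label-retaining cells were far deeper in repeats 1 and 2, and shallower in repeats 3 and 4. The 4 cells with under 10000 counts were all non-label-retaining. The stem cell label was checked on Hlf, Gata2 and Meis1, transcription factor genes of hematopoietic stem cells. Among label-retaining cells, Hlf was detected in 9, 8, 7 and 7 cells of repeats 1 to 4, and among non-label-retaining cells in 8, 3, 0 and 1. Gata2 was detected in 7, 4, 8 and 5 label-retaining cells and in 6, 1, 1 and 2 non-label-retaining cells, and Meis1 in 7, 5, 6 and 6 label-retaining cells and in 5, 1, 3 and 3 non-label-retaining cells. Non-label-retaining cells of repeats 3 and 4 stood apart from the other 6 sets in Hlf. Their Gata2 levels, 0.535 and 1.70 CPM (counts per 1000000 counts of the analysed genes), were also lowest, against 10.3 to 480 CPM elsewhere. Meis1 was lowest there too, at 5.08 and 2.27 CPM. The 5.08 CPM was level with the 5.13 CPM of non-label-retaining repeat 2, while the remaining sets held 80.7 to 178 CPM of Meis1. At least 1 of the 3 genes was detected in 8 of the 16 non-label-retaining cells of repeats 3 and 4. The stem cell marker list, 5 of 16 genes with a value, summed to 5.62 and 17.0 CPM there, against 267 to 4176 CPM in the other sets. That range largely repeats Hlf, which made up 251 of the 267 CPM and 3900 of the 4176 CPM, in non-label-retaining repeats 2 and 1. Slamf1, which encodes the CD150 antigen used in the sort, was listed at 0 in every cell, as were Flt3 and Cd48, which encode antigens the sort excluded. Cited2 results that rest on the non-label-retaining cells of repeats 3 and 4 are given with and without them.

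Every label-retaining cell of repeat 1 held Cited2. The 9 cells held 0.36 to 1303 estimated counts of Cited2, with a median of 20.4, and 4 of them were above 200. In the 8 non-label-retaining cells of repeat 1, 4 cells held 1.23, 17.3, 2.60 and 2.04 counts and the other 4 held 0. The 2 groups overlapped within this repeat, since label-retaining cells of 0.36 and 3 counts lay among the non-label-retaining values.

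In repeat 2, Cited2 was detected in 8 of 9 label-retaining cells, at 1 to 8525 counts, and 2 of these cells, with 897 and 8525 counts, were above 200. Among the 4 non-label-retaining cells of repeat 2, 1 held 2 counts and 3 held 0. The 8525-count cell had the highest Cited2 level in the series, 3062 CPM, and held 90.0% of all Cited2 counts of its set.

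In repeats 3 and 4 no cell passed 49 counts of Cited2. In repeat 3 the 10 label-retaining cells held 1, 7, 10, 12 and 1 counts in 5 cells and 0 in 5 cells, and all 6 non-label-retaining cells held 0. In repeat 4 the 9 label-retaining cells held 4, 1, 49 and 5 counts in 4 cells and 0 in 5 cells, and all 10 non-label-retaining cells held 0. Taking 3 cells as the limit that a count of 0 allows, 0 of 6 and 0 of 10 cells allow a share of up to 50% and 30.0% of cells with a count, and 0 of the 16 together up to 18.8%.

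**Figure D1:**
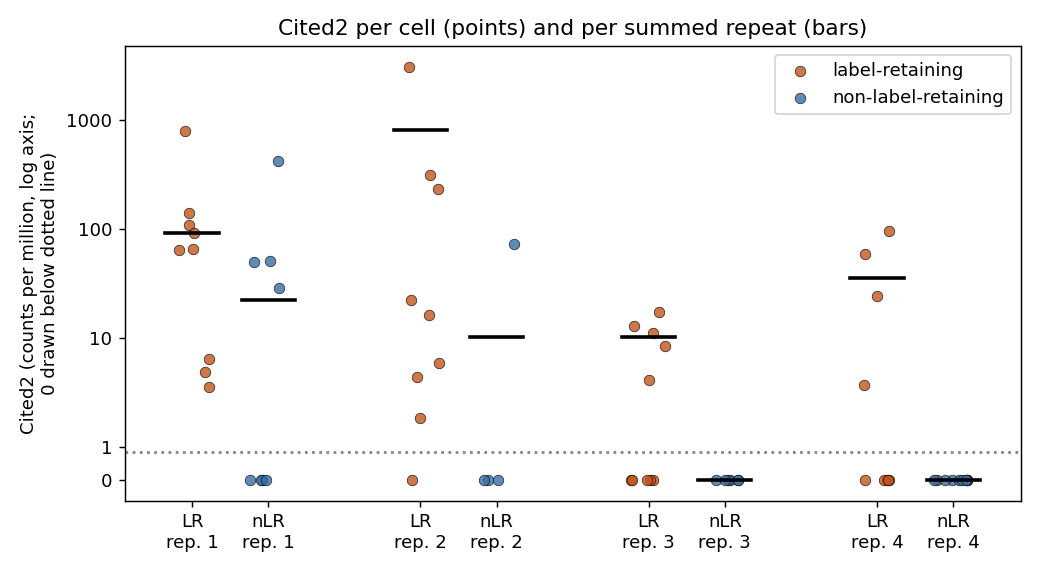
Cited2 in CPM (log axis, values of 0 drawn below the dotted line) for each cell, in label-retaining (LR) and non-label-retaining (nLR) cells of repeats (rep.) 1 to 4. Black bars are the level in the summed cells of a set, from 803 CPM in label-retaining repeat 2 to 0 in non-label-retaining repeats 3 and 4. Few cells carry most of the counts, and label-retaining sets also hold cells at 0 in repeats 2, 3 and 4.

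As shares, Cited2 was detected in 100%, 88.9%, 50% and 44.4% of label-retaining cells in repeats 1 to 4, and in 50%, 25.0%, 0% and 0% of non-label-retaining cells. Mean shares were 70.8 ± 27.7% for label-retaining repeats and 18.8 ± 23.9% for non-label-retaining repeats (SD, n = 4 each). The difference within a repeat was 50, 63.9, 50 and 44.4 percentage points, a mean of 52.1 points with an SD of 8.29 points over the 4 repeats. The differences within repeats lay closer together than the shares themselves. Non-label-retaining repeats 3 and 4 were at 0%, and sets held 4 to 10 cells. The SD of the differences is therefore no measure of how well the repeats agree. The groups overlapped across repeats, since label-retaining repeats 3 and 4 did not exceed non-label-retaining repeat 1, at 50%. With 4 to 10 cells in a set the exact Clopper-Pearson 95% intervals were wide, for example 18.7 to 81.3% for label-retaining repeat 3 and 15.7 to 84.3% for non-label-retaining repeat 1. For the sets with no Cited2 their upper ends, 45.9% and 30.8% for non-label-retaining repeats 3 and 4, differ from the 3-cell limits above because they are computed another way. These intervals cover counting error only.

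Without the non-label-retaining cells of repeats 3 and 4, the difference between the mean shares was 33.3 points, and without both groups of those repeats it was 56.9 points. In repeats 1 and 2 alone, where label-retaining cells were far deeper by median, 17 of 18 label-retaining cells and 5 of 12 non-label-retaining cells held Cited2. Higher detection in label-retaining cells in all 4 repeats was common in this table: it was found for 1015 of 3489 genes detected in at least 10 cells, or 29.1%, and a smaller share in all 4 repeats for 3 genes, or 0.0860%.

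Cells were then compared at 1 depth. Each cell with at least 10000 counts was thinned to 10000, and the chance that at least 1 Cited2 count remains was computed exactly and averaged over the cells of a set, which left out 1, 1 and 2 non-label-retaining cells of repeats 1, 2 and 4 and no label-retaining cell. The expected share of cells with Cited2 was 45.9%, 37.1%, 5.14% and 14.9% in label-retaining repeats 1 to 4, and 16.1%, 20.0%, 0% and 0% in non-label-retaining repeats. Label-retaining cells were higher in each repeat, by 29.8, 17.1, 5.14 and 14.9 points, while the groups again overlapped across repeats. The means were 25.8 ± 18.9% for label-retaining repeats and 9.01 ± 10.5% for non-label-retaining repeats (SD, n = 4 each), a difference of 16.7 points against 52.1 points at full depth. Without the non-label-retaining cells of repeats 3 and 4 it was 7.73 points, and without both groups of those repeats it was 23.5 points. The 16.7 points lay within the SD of the label-retaining repeats, and the SD of the 4 differences within repeats was 10.1 points. After thinning, 699 of the 3489 genes, or 20.0%, had the higher expected share in label-retaining cells in all 4 repeats.

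The thinned value of repeat 3 rested on few counts: its label-retaining cells kept an expected 0.0539 Cited2 counts per cell at 10000 counts, against 1.40, 4.06 and 0.202 in label-retaining repeats 1, 2 and 4. Non-label-retaining repeats 1 and 2 kept 0.189 and 0.245 expected counts per cell, the second from 3 cells. Most of the thinned Cited2 signal thus came from repeats 1 and 2.

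**Figure D2:**
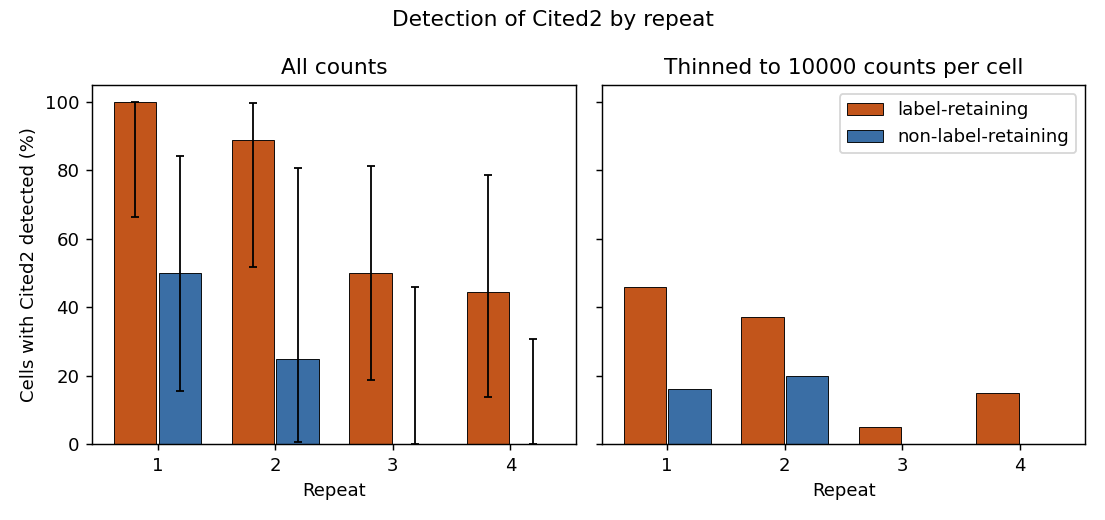
Percent of cells with Cited2 in label-retaining and non-label-retaining cells of repeats 1 to 4, from all counts (left, with exact 95% binomial intervals) and as the expected share after thinning to 10000 counts per cell (right, cells with at least 10000 counts). The label-retaining bar is higher in each repeat on both sides, and the gap in repeat 3 falls to 5.14 points on the right.

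Within a group, Cited2 detection went with the depth of the cell in label-retaining cells. The 26 label-retaining cells with Cited2 had a median of 619680 counts and 2352 genes detected, against 96721 counts and 805 genes in the 11 without it. Among non-label-retaining cells the order of depth was the other way: the 5 cells with Cited2 had a median of 40947 counts and the 23 without it 165707, while genes detected were 1385 and 919. This contrast pools repeats of unlike depth, since all 5 cells were in repeats 1 and 2. Within those repeats the 7 non-label-retaining cells without Cited2 had a median of 54723 counts and 1067 genes detected. In repeats 3 and 4 the median was 268737 counts in the 9 label-retaining cells with Cited2, 93128 counts in the 10 label-retaining cells without it, and 246632 counts in the 16 non-label-retaining cells, none of which held it. The median number of genes detected was 2695 in these label-retaining cells with Cited2, 804.5 in those without it, and 824.5 in the 16 non-label-retaining cells. Over all 65 cells, the Spearman rank correlation of Cited2 CPM was 0.28 with the total count and 0.61 with the number of genes detected, both read from the same libraries and given as a description. The part of depth and of genes detected in the group difference beyond thinning was not tested.

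**Figure D3:**
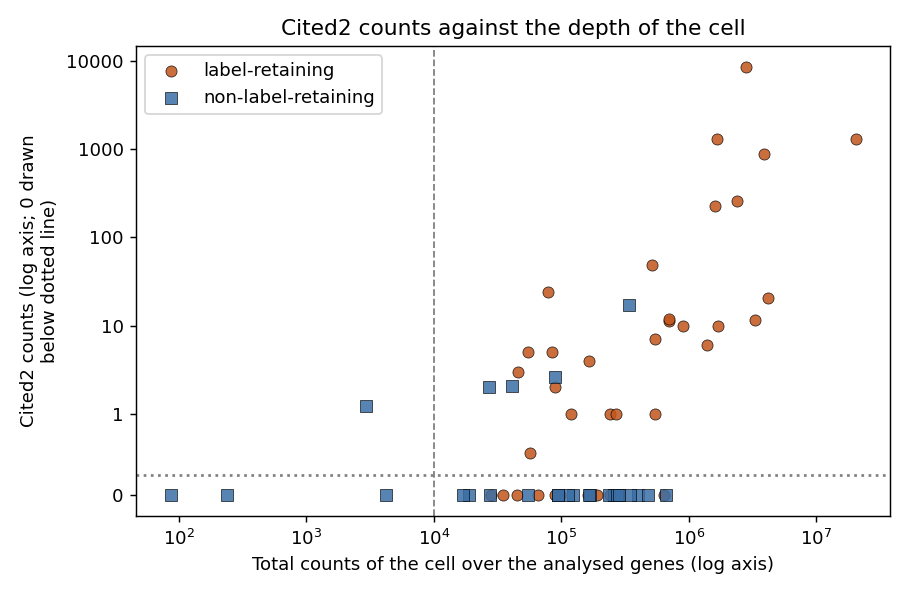
Cited2 counts of each of the 65 cells against the total counts of the cell (both log axes, 0 drawn below the dotted line), with the 10000-count depth as a dashed line. The 6 cells above 200 Cited2 counts are label-retaining and hold at least 1610478 counts each, and most cells at 0 lie in a range of depth where other cells held Cited2.

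The level of Cited2 in the summed cells of a set was 92.4, 803, 10.1 and 35.2 CPM in label-retaining repeats 1 to 4, and 22.5, 10.3, 0 and 0 CPM in non-label-retaining repeats. Behind these levels stood 3120, 9476, 31 and 59 counts in label-retaining sums, and 23.2, 2, 0 and 0 counts in non-label-retaining sums. Label-retaining repeat 2 was far above every other sum, and label-retaining repeat 3, at 10.1 CPM, was level with non-label-retaining repeat 2, at 10.3 CPM from 2 counts. The mean was 235 ± 380 CPM in label-retaining sums and 8.18 ± 10.7 CPM in non-label-retaining sums (SD, n = 4 each), a log2 ratio of 4.85. The difference of 227 CPM was smaller than the spread among label-retaining repeats.

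Within repeat 1 the label-retaining level was 4.12-fold that of non-label-retaining cells, with a 95% counting interval of 2.75 to 6.48 from the non-label-retaining count alone. Within repeat 2 it was 78.3-fold, with an interval of 21.7 to 647 that reflects the 2 counts below the line. Neither interval covers the spread between cells. As a mean of CPM over the cells of repeat 1, Cited2 was at 141 CPM in label-retaining and 68.4 CPM in non-label-retaining cells. In repeats 3 and 4 the non-label-retaining sum was set to a floor of 3 counts, which covers counting error only. Scaled by total counts, label-retaining cells were then at least 6.31-fold and at least 20.7-fold higher. These bounds hold for that scaling alone. In repeat 3 the TMM scaling factor was 1.44 in the label-retaining sum against 0.290 in the other group. In repeat 4 it was 1.47 against 0.223. Both bounds would thus be lower under TMM, and they were not recomputed. Higher CPM in label-retaining sums in all 4 repeats was seen for 917 of 3489 genes, or 26.3%.

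A few cells set these sums. The cell with most Cited2 held 41.8%, 90.0%, 38.7% and 83.1% of the counts in label-retaining repeats 1 to 4, and 5 cells held 96.8% of all Cited2 counts of the group. In non-label-retaining repeats 1 and 2 the top cell held 74.7% and 100% of the counts. With the top cell of each set left out, label-retaining sums were 137, 106, 8.02 and 8.59 CPM, and non-label-retaining sums were 8.48, 0, 0 and 0 CPM. The median cell held 65.7, 16.3, 2.06 and 0 CPM in label-retaining repeats, and 14.5, 0, 0 and 0 CPM in non-label-retaining repeats. Without label-retaining repeat 2 the log2 ratio of the mean levels was 2.49 in place of 4.85. Without the non-label-retaining cells of repeats 3 and 4 it was 3.85, and without both groups of those repeats it was 4.78.

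Among the cells that held Cited2, its median level was the higher one in non-label-retaining libraries: it was 19.8 CPM in the 26 label-retaining cells and 50.9 CPM in the 5 non-label-retaining cells. The 5 non-label-retaining values rested on 1.23 to 17.3 counts each. A single count gives a higher CPM in a shallower library. The cells with Cited2 had a median total of 619680 counts in label-retaining and 40947 counts in non-label-retaining cells. The order of these 2 median levels is therefore not a comparison at equal depth, and the part of depth in it was not tested. Of the 31 values above 0, 17 were whole numbers, including all 9 values of repeats 3 and 4. The others were fractions, as an estimated count can be when a read is shared between positions, so low fractional values such as the 0.36 counts of 1 label-retaining cell do not stand for a whole read.

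Cited2 was then set beside the stem cell genes. All 31 cells with Cited2 also held Hlf, a stem cell transcription factor gene that was detected in 43 cells. Among Hlf-positive cells, 26 of 31 label-retaining cells and 5 of 12 non-label-retaining cells held Cited2. In repeats 3 and 4, 14 of 19 label-retaining cells held Hlf and 9 of these held Cited2, whereas 1 of 16 non-label-retaining cells held Hlf and none held Cited2. In repeats 1 and 2, 11 of 12 non-label-retaining cells held Hlf and 5 of these Cited2. This pairing was singled out after the values were seen. Among the 63 genes detected in exactly 31 cells, Cited2 included, the number of their cells that held Hlf was 18 to 31, with a median of 26, and 2 genes, or 3.17%, reached 31: Cited2 and Rtn4. Of all 1994 genes detected in at least 20 cells, 47, or 2.36%, were found in Hlf-positive cells only. The part of the stem cell markers in the Cited2 difference was not tested.

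**Figure D4:**
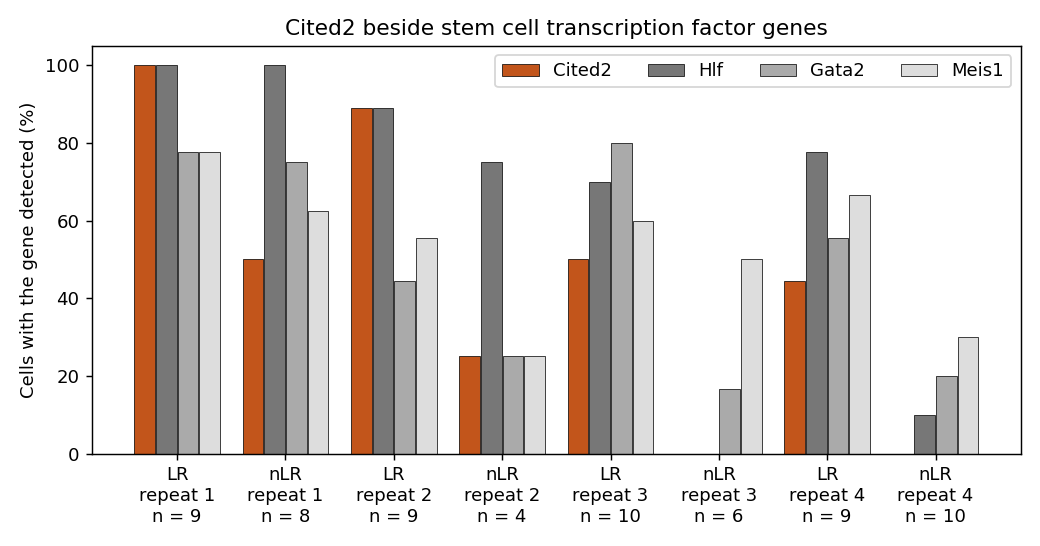
Percent of cells with Cited2 and with 3 stem cell transcription factor genes, Hlf, Gata2 and Meis1, in each set of label-retaining (LR) and non-label-retaining (nLR) cells, with n cells per set. In non-label-retaining repeats 3 and 4, where Cited2 is 0%, Hlf is detected in 0 of 6 and 1 of 10 cells.

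No marker list, of stem cells or of another cell type, was higher in label-retaining cells in all 4 repeats, as Cited2 was. In repeat 1 the stem cell list was at 796 CPM in label-retaining and 4176 CPM in non-label-retaining cells. The erythroid list, 4 of 10 genes with a value, summed to 38.9 to 73792 CPM in label-retaining sets and 2393 to 23855 CPM in non-label-retaining sets, and its highest set was label-retaining repeat 3, where Cited2 was lowest among label-retaining sets. B cell markers, 4 of 10 genes with a value, summed to 6680 CPM in label-retaining repeat 2, the set with most Cited2, and to 56.4 CPM or less in the other 7 sets. In the 8525-count Cited2 cell of that repeat, B cell markers were at 0, the stem cell list was at 2876 CPM and the monocyte list was at 388 CPM. Megakaryocyte markers, 3 of 10 genes with a value, were at 246 to 3455 CPM in label-retaining sets and 1.61 to 569 CPM in non-label-retaining sets. Endothelial markers, 2 of 10 genes with a value, were at 47.7 to 362 CPM in label-retaining sets and 0 to 75.4 CPM in non-label-retaining sets. Monocyte markers, 5 of 10 genes with a value, were at 5.21 to 104 CPM in label-retaining sets and 0.969 to 21.7 CPM in non-label-retaining sets. Neutrophil and T or NK cell markers, with 3 and 2 of 10 genes with a value, stayed at or under 30.4 CPM in all sets, and stromal markers, with 4 of 10, were at 0.143 to 58.2 CPM in label-retaining sets and 3.88 to 64.9 CPM in non-label-retaining sets. Whether RNA of other cells bears on Cited2 was not tested beyond these values.

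Detection in both groups together placed Cited2 at an edge of the table. Of the 80 genes detected in exactly 26 label-retaining cells, 4, or 5.00%, were found in 5 or fewer non-label-retaining cells, and the median of the 80 was 12 non-label-retaining cells. Named after their values were seen, these 4 were Cited2 and Hoxb4 (26 and 5 cells each), Zmynd11 (26 and 4) and B230219D22Rik (26 and 5). Hoxb4 encodes a homeodomain factor that expands stem cells when overexpressed. In repeats 3 and 4, 40 of 271 genes detected in 9 label-retaining cells, or 14.8%, were in none of the 16 non-label-retaining cells, as Cited2 was. All of these shares read the measure on which Cited2 was chosen and describe its place only.

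**Figure D5:**
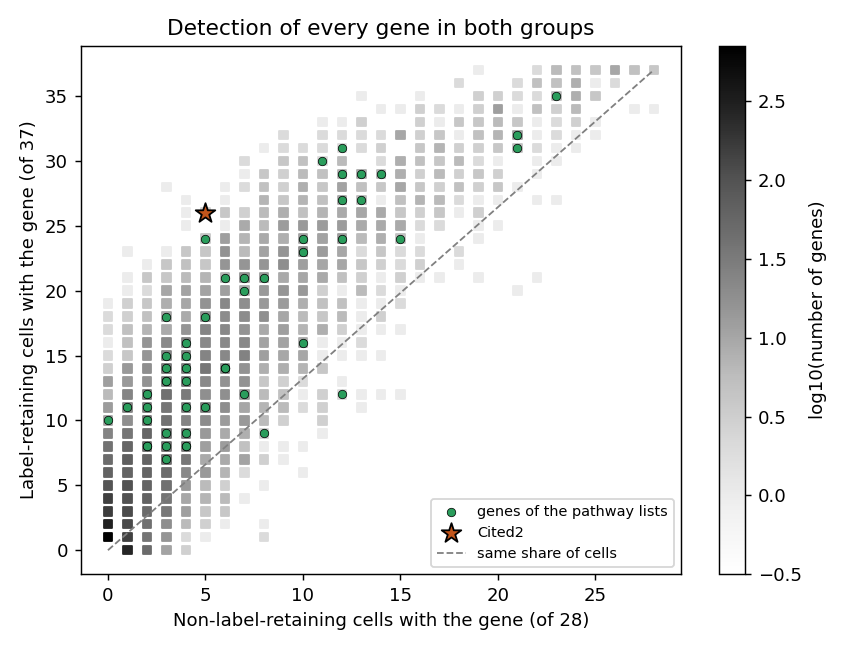
Number of label-retaining cells (of 37) and of non-label-retaining cells (of 28) in which each gene was detected. Grey squares give the number of genes at each position (log10 scale), green circles the genes of the Cited2 pathway lists detected in at least 10 cells, and the star Cited2. Cited2, at 26 and 5 cells, lies on the upper left edge, and most genes lie above the dashed line of equal shares.

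Genes around Cited2 were examined as 9 lists of family members, partners, targets and linked routes. Besides Cited2 they held 133 genes, of which 67 had a value and 52 were detected in at least 10 cells. Of these 52, 17 were detected more often in label-retaining cells in all 4 repeats, or 32.7%, and 16 after thinning, or 30.8%, beside 29.1% and 20.0% of all genes. On the 8 summed sets, edgeR's quasi-likelihood test with Benjamini-Hochberg adjustment over 2786 genes called none of the 46 list genes tested, and none of all genes, with a smallest adjusted p of 0.326. At an unadjusted p under 0.05 it had 3 list genes higher and 1 lower, and 180 genes (6.46%) higher and 122 (4.38%) lower of all, while DESeq2 called 8 genes higher and 6 lower. The median log2 fold change was 1.23 over the list genes and 1.15 over all genes tested.

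Direct partners came first. Cited1, Cited4, Ep300 and Crebbp, the family members and the acetyltransferases that CITED2 binds, were not analysed here. Of 8 other acetyltransferase or coactivator genes detected in at least 10 cells, 1 was in more of the label-retaining cells in all 4 repeats: Kat7, which encodes the HBO1 acetyltransferase, was in 18 label-retaining and 3 non-label-retaining cells. Kat2b, which encodes PCAF, was in 13 and 3 cells. Ncoa2, a nuclear receptor coactivator gene, was in 35 and 23 cells and its expected thinned shares were 59.1% in label-retaining cells and 60.2% in non-label-retaining cells. The other 5, Kat5, Kat6a, Kat6b, Kat8 and Ncoa1, were in 8 to 11 label-retaining and 2 to 4 non-label-retaining cells.

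Of the HIF subunit and oxygen-sensing genes, 1 of 4 had a larger share in all 4 repeats. Hif1a, which encodes the subunit that competes with CITED2, was in 16 label-retaining and 10 non-label-retaining cells, with mean shares of 44.2 ± 27.7% and 41.5 ± 23.6% (SD, n = 4 each), a difference far below the spread of repeats. Its thinned shares had the other order, 27.4% and 33.4%, while its mean levels were 295 ± 331 and 102 ± 115 CPM. Epas1, which encodes HIF-2 alpha, was in 12 and 7 cells. Egln2, a prolyl hydroxylase gene of the oxygen-sensing system, was in 15 and 4 cells and was larger in label-retaining cells in 4 of 4 repeats. Vhl, which encodes the ubiquitin ligase subunit that marks HIF alpha subunits for degradation, was in 8 and 2 cells.

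HIF target genes were the list with most members, 15 detected in at least 10 cells, and 5 of these were in more of the label-retaining cells in all 4 repeats, 6 after thinning. Ldha, the lactate dehydrogenase gene that ends glycolysis, was in 27 label-retaining and 12 non-label-retaining cells, with thinned shares of 50.4% and 18.5%. Ddit4, a stress-induced inhibitor gene of mTORC1, was in 13 and 4 cells, and Kdm3a, a hypoxia-induced histone demethylase gene, was in 11 and 4. Slc2a3, which encodes the glucose transporter GLUT3, went the other way at 1 depth, with thinned shares of 46.2% in label-retaining cells and 65.4% in non-label-retaining cells. So did P4ha2 (20.7% and 27.0%) and Bnip3 (5.26% and 5.69%). The mean level of P4ha2 was 28.7 ± 34.6 CPM in label-retaining and 144 ± 168 CPM in non-label-retaining sums (SD, n = 4 each). Besides Ldha, Ddit4, Kdm3a and Slc2a3 the list held 11 genes, P4ha1, P4ha2, Aldoa, Hk1, Hk2, Bnip3, Pfkl, Higd1a, Tpi1, Gpi1 and Gapdh. Most of them are glycolytic or collagen-modifying enzyme genes, and they were in 8 to 32 label-retaining and 3 to 21 non-label-retaining cells. Over the pooled cells all 15 had the larger share in label-retaining cells, after thinning 12 of 15 had the larger mean share there, and the fitted log2 fold change was above 0 for 10 of 15. None of the 15 passed the test.

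Of the transcription factor genes known to use CITED2 as a coactivator, 1 of 3 had a larger share in all 4 repeats: Smad4, the common mediator of TGF-beta signalling, was in 16 label-retaining and 4 non-label-retaining cells. Tfap2a, an AP-2 factor gene, was in 14 and 6 cells, and Smad2, a receptor-activated partner of Smad4, in 9 and 8. Of the genes reported lower in Cited2-deficient blood stem cells of mice, 1 of 3 did so: Gata2 was in 24 and 10 cells. Pdk4, a kinase gene that limits pyruvate entry into mitochondria, was in 29 and 13 cells, and Ldhb in 14 and 6.

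In the p53 and Ink4a-Arf list 3 of 6 genes had a larger share in all 4 repeats, and none passed the test. Bbc3, which encodes the cell death protein PUMA, was in 15 label-retaining and 3 non-label-retaining cells, Bax, another cell death gene, in 21 and 7, and Mdm2, which encodes a ubiquitin ligase of p53, in 21 and 6. Trp53 itself was in 10 and 2 cells, and the p53 target genes Ccng1 and Sesn1 in 20 and 7 and in 13 and 3. The fitted log2 fold change was above 0 for 5 of the 6 genes and was -1.98 for Mdm2.

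In the FOXO, AKT and quiescence list it was 3 of 7. Btg1, an antiproliferative gene, was in 30 label-retaining and 11 non-label-retaining cells, and the related Btg2 in 11 and 1. The mean level of Btg1 had the other order, 222 ± 121 CPM in label-retaining and 1298 ± 1752 CPM in non-label-retaining sums (SD, n = 4 each). Its CPM was higher in label-retaining sums in 1 of 4 repeats. Cdkn1b, which encodes the cell cycle inhibitor p27, was in 10 label-retaining cells, 0 of them in repeat 2, and no non-label-retaining cell. Of all genes detected in exactly 10 label-retaining cells, 11 were in 0 non-label-retaining cells and 40, the most, in 3. Cdkn1b was not among the genes tested. Akt1 and Klf6 were in 11 and 5 and in 29 and 14 cells. Sirt1, a deacetylase gene, was in 12 and 12 cells and had its larger share in label-retaining cells in 1 repeat. Sirt1 was also the list gene that DESeq2 called, lower in label-retaining sums in 3 of 4 repeats by a log2 fold change of -9.68 with an adjusted p of 8.2e-04, whereas edgeR gave a log2 fold change of -9.24 and an adjusted p of 0.33.

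Of the other stem cell maintenance genes 2 of 6 had a larger share in all 4 repeats, Meis1, a homeobox gene, in 24 label-retaining and 12 non-label-retaining cells and Hoxb4. Etv6, a repressor gene needed for adult stem cells, was in 14 and 3 cells, and Id2, an inhibitor gene of basic helix-loop-helix factors, in 12 and 2. Zfx was in 7 and 3 cells, and Hlf, given above, in 31 and 12.

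The genes most like Cited2 were sought among 1994 genes detected in at least 20 cells. By Pearson r of log2(counts per 10000 + 1) over the 61 cells of at least 10000 counts, after the mean of each set was subtracted, the closest were Ndufv1 (r = 0.87), Tomm6 (0.80), Zfp68 (0.79) and Dnajc14 (0.76). Ndufv1 encodes a subunit of mitochondrial complex I and Tomm6 a part of the outer membrane import complex. The middle 95% of the 1994 values lay between -0.16 and 0.54. Without the 8525-count cell these values were 0.80 for Ndufv1, 0.62 for Tomm6, 0.71 for Zfp68 and 0.67 for Dnajc14. By detection in the same cells, of 65, the closest were Abhd2 and Ppp1r15a with 56 matching cells each, and Stat3, Vmp1 and Gabarapl1 with 55 each, against a median of 43. Ppp1r15a encodes the stress-induced phosphatase subunit GADD34, Stat3 a cytokine-activated transcription factor, and Vmp1 and Gabarapl1 proteins of autophagy. Cells in these measures share their libraries and depth, and the values are descriptions.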

How the data were processed

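Single cells were the GEO samples: 37 label-retaining and 28 non-label-retaining stem cells from 4 repeats, each with its own index pair, all from 1 sequencing run per the labels. The authors deposited 1 table of estimated (expected) counts for 18036 NCBI gene rows. Per the submitters' processing notes, DESeq was named and the build was mm10. Which aligner, read counter and gene models were used is not given in the sources used here. Although the deposited table is named as normalized, its expected counts were unscaled: totals per cell ran from 86.1 to 20516069, and a median of 74.7% (lowest 59.5%) of values between 0.5 and 20 in a cell were whole within 0.0001. Totals are over the 18036 analysed rows and are not full library depth. Symbols were matched through RefSeq for GRCm38.p6 for 16216 rows, and unmatched rows took 0.13% of counts. No 2 cells held identical values.

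Cited2 and all gene lists were chosen with earlier results of these data known. Named genes were Cited2, list genes detected in at least 10 cells, and the 5 genes most like Cited2 by each of 2 measures. Of these, 2 genes are not reported here. List genes not named are counted only. The repeat was the unit, since cells are not replicates, and whether repeats are separate mice is stated only as biological repeats in the series design. Cited2 levels are CPM over summed counts of a set. Thinning to 10000 counts used exact hypergeometric chances. For it, values were rounded per cell. For the test, counts were rounded after summing and tested in edgeR 4.0.16 (R 4.3.3, TMM, robust quasi-likelihood, adjusted p threshold 0.05) over genes with a mean of at least 10 per cell and a value in at least 10 cells. DESeq2 1.42.0, other scalings, filters, thinning depths and left-out repeats were alternatives, and the script was tested on simulated data.

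The labels give both groups the same repeat numbers. Deviations of same-numbered sums from their group means correlated at r = 0.56, 0.27, 0.17 and 0.15 for repeats 1 to 4, all over 0.1, so the numbers were taken to pair the samples. Sums of unlike number correlated at -0.32 to 0.16, and label-retaining repeat 4 was slightly closer to non-label-retaining repeat 3 (0.16) than to its own number. The fit with the repeat as a replicate block called 0 genes, as did the fit without it.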

Additional observations from a re-analysis of the deposited data

Results flagged for a closer look

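Dixon's test was applied to Cited2 in 12 groups of values. Its rate of about 1 in 20 groups marked by chance holds for normally distributed values. Cited2 values are uneven and often 0, so that rate cannot be relied on here. The test compares values within a group, and since Cited2 was selected on these cells it is given as a description. Label-retaining repeat 2 stood apart from the other 3 label-retaining sums, at 803 CPM. Within sets of cells, 1 label-retaining cell of repeat 1 stood apart at 782 CPM, from 1293 counts, and 1 label-retaining cell of repeat 2 at 3062 CPM, from 8525 counts. The stem cell marker list was at 1325 CPM in the repeat 1 cell and 2876 CPM in the repeat 2 cell, and B cell, neutrophil and T or NK cell markers were at 0 in both. The repeat 1 cell also held megakaryocyte markers at 638 CPM and erythroid markers at 134 CPM, and the repeat 2 cell monocyte markers at 388 CPM and endothelial markers at 202 CPM. In non-label-retaining cells, 1 cell of repeat 1 stood apart at 418 CPM, from 1.23 counts in a library of 2938 counts, and 1 cell of repeat 2 at 73.3 CPM, from 2 counts among 3 cells at 0. With 3 of 4 values at 0 any value above 0 stands apart by this test, so this last one carries no information. The first of these would not be kept at a minimum of 10000 counts per cell, and neither value rests on more than 2 counts.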

How the results depend on the processing

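Cited2 was higher in label-retaining cells under each alternative run, with no change of direction, but its size was not stable. The difference in mean share of cells, 52.1 points, was 35.2 points when a count of 10 was required and 33.3 points without the non-label-retaining cells of repeats 3 and 4, an alternative chosen after seeing the data. Leaving out 1 repeat, of both groups or of 1, gave 42.4 to 62.5 points. The thinned difference, 16.7 points, was 34.7 points at 50000 counts per cell, where fewer cells entered, and 10.04 to 23.6 points with a repeat left out. The log2 ratio of levels, 4.85, was 2.72 from the mean and 2.54 from the median of CPM over cells, and 2.49 to 6.37 with a repeat left out. It was 2.62 without repeat 2 and 2.49 without label-retaining repeat 2. The number of genes called was 0 in edgeR, 0 with the replicate block, in which 212 genes were higher and 9 lower before adjustment, and 0 with each repeat left out. Before adjustment, 180 genes higher and 122 lower under TMM were 230 and 43 under total counts and 124 and 150 under DESeq2 size factors. The number called was 14 in DESeq2, 1 of them a list gene, and 1 without the non-label-retaining cells of repeats 3 and 4, namely Efcab11, named after its value was seen. The 1015 genes and 17 list genes with a larger share in every repeat became 1119 to 1721 and 18 to 27 with a repeat left out, where fewer repeats have to agree, and 1814 genes without repeats 3 and 4. With 1 repeat left out the highest values were without repeat 2, and without repeat 3 there were 1612 genes. Few cells per set and 0 to 23.2 non-label-retaining counts limit every Cited2 ratio.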
